A study of Mus musculus with 44 samples.

Results

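Interferon-stimulated genes are the genes that cells switch on when an interferon, a secreted antiviral and immune signal, binds its receptor. A set of 38 of them, listed by gene symbol and chosen with earlier results of these data known, was followed through 44 mouse lung RNA-seq libraries. The deposited tables list 24150 genes for the subcutaneous tumour model and 26940 for the intratracheal model. All 38 members were in both tables and all passed the filter on low values in each of the 14 comparisons. By known role, the set holds 4 IFIT genes, 5 OAS genes, 3 cytosolic RNA sensors, 4 transcription factors, the pair Isg15 and Usp18, 14 other antiviral effectors and 6 interferon-inducible GTPases.

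All mice were C57BL6j, and the tumour cells were LL/2-Luc2, a Lewis lung carcinoma line that carries a luciferase reporter. Treated mice received rTIMP2, recombinant human TIMP2, an inhibitor of matrix metalloproteinases, at 200 µg/kg by intraperitoneal injection every day, and vehicle mice received the salt solution HBSS. In the intratracheal model, 1 M cells were placed in the airway of MT2 mice (genotype given as mutant Timp2) or WT mice, and their lungs formed an rTIMP2 group and an HBSS group in each genotype. Tumour-free MT2 and WT lungs completed that model, with 5 libraries in each of its 6 groups. In the subcutaneous model, 1 M cells were injected under the skin of the flank of wt mice, and lungs taken at the early metastatic stage came from mice given rTIMP2 from day 7 (4 libraries), rTIMP2 from day 0 (5 libraries) or HBSS (5 libraries). Each library was made from polyA RNA of a small piece of whole lung, the labels give no age, and nothing in them says whether a piece held a tumour nodule. No label states that libraries of a group came from separate animals, so p-values measure the spread between these libraries.

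As background, type I interferons signal through the receptor subunits Ifnar1 and Ifnar2 to a complex that holds Stat2 and Irf9 and binds an element called ISRE in front of its targets. Interferon gamma signals through its own receptor to a different element called GAS and acts strongly on the GTPase genes. In lung the response restrains viruses, and its products include sensors of viral RNA, enzymes that degrade or block it, and factors such as Irf7 that amplify interferon production.

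Some members carried letter patterns of these elements in front of their start sites. RefSeq entries on GRCm38.p6 gave 250 bases before the start for 28 of the 38 members. The ISRE core, GAAA followed after 2 free bases by GAAA again, on either strand, was found in 15 of the 28 (53.6%), against 936 of 27025 genes with an entry (3.46%). The GAS pattern TTCNNNGAA, which reads the same on both strands, was found in 7 of the 28 (25.0%), against 2197 of all genes (8.13%). Oas1a, Bst2, Gbp7 and Igtp had both, with overlapping matches in Bst2, so that 18 members had either pattern and 10 had neither, Ifih1, Cmpk2, Ddx58 and Irf7 among them. For the other 10 members, Parp14 among them, no entry was used. The stretches below show the first ISRE match of an IFIT gene, of Isg15 and of Rsad2, and the GAS match of Irf1, chosen to show what each pattern looks like in members described below. Capitals mark the match, the other letters are 30 bases on each side, and each stretch is written along the gene's own strand, so a core on the opposite strand reads as a pair of TTTC.
Ifit1 (chr19:34640755-34640824, plus strand, match 104 to 95 bases before the start): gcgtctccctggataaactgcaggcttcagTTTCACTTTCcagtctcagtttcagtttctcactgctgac
Isg15 (chr4:156200857-156200926, minus strand, match 78 to 69 bases before the start): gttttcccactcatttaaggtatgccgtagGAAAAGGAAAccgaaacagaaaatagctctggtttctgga
Rsad2 (chr12:26456533-26456602, minus strand, match 120 to 111 bases before the start): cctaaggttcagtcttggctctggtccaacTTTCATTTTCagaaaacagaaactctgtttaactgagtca
Irf1 (chr11:53769894-53769962, plus strand, match 90 to 82 bases before the start): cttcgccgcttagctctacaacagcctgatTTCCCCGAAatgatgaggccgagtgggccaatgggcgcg
A letter match is a description of the sequence and not evidence of a bound factor. The members lie on several chromosomes, with 6 on chromosome 11, and Rsad2 and Cmpk2 are neighbours on chromosome 12 (26442746-26456453 and 26469204-26479838, GRCm38).

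Depth, estimated from the spacing of low values, was 10.7 to 17.1 M reads in the intratracheal libraries and 14.9 to 19.4 M reads in the subcutaneous ones. Timp2 averaged 6105 ± 144 normalized counts in tumour-free MT2 lungs and 10619 ± 519 in tumour-free WT lungs (SD, n = 5 each), whereas the ranges overlapped with tumour cells and HBSS, at 6512 to 11992 in MT2 lungs and 5753 to 7781 in WT lungs. The luciferase transcript averaged 59.8 ± 8.59 in MT2 HBSS lungs and 51.1 ± 11.9 in WT HBSS lungs (SD, n = 5 each), and each of the 10 tumour-free lungs had a value of 0. Among rTIMP2 lungs it was 75.5, 0.983, 50.9, 37.9 and 55.3 in MT2 mice and 23.3, 0, 0, 67.7 and 0 in WT mice, so MT2 replicate 2 and WT replicates 2, 3 and 5 had almost none. Hmga2, a gene scarcely detected in adult lung, was 5299.5, 63.9, 3309, 4378 and 3112 in MT2 rTIMP2 lungs and 1198, 23.5, 32.1, 2779.8 and 13.6 in WT rTIMP2 lungs, against 2212 to 5070 in the 10 HBSS lungs and 27.8 or less in tumour-free lungs. Replicate 3 of the MT2 HBSS lungs stood apart high for 28 members by Dixon's criterion, and results for the members that it enters are given with and without it. Since it was picked for high member values, leaving it out lowers the members in MT2 HBSS lungs by selection. Other libraries stood apart high for fewer members: subcutaneous HBSS replicate 3 for 14, rTIMP2 from day 0 replicate 4 for 11 and WT rTIMP2 replicate 4 for 7. Sample numbers of the tumour-free lungs come from another range, and a difference in cohort cannot be told apart from the tumour cells. In whole lung, fewer cells of a type and less RNA per cell cannot be told apart either.

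**Figure D1:**
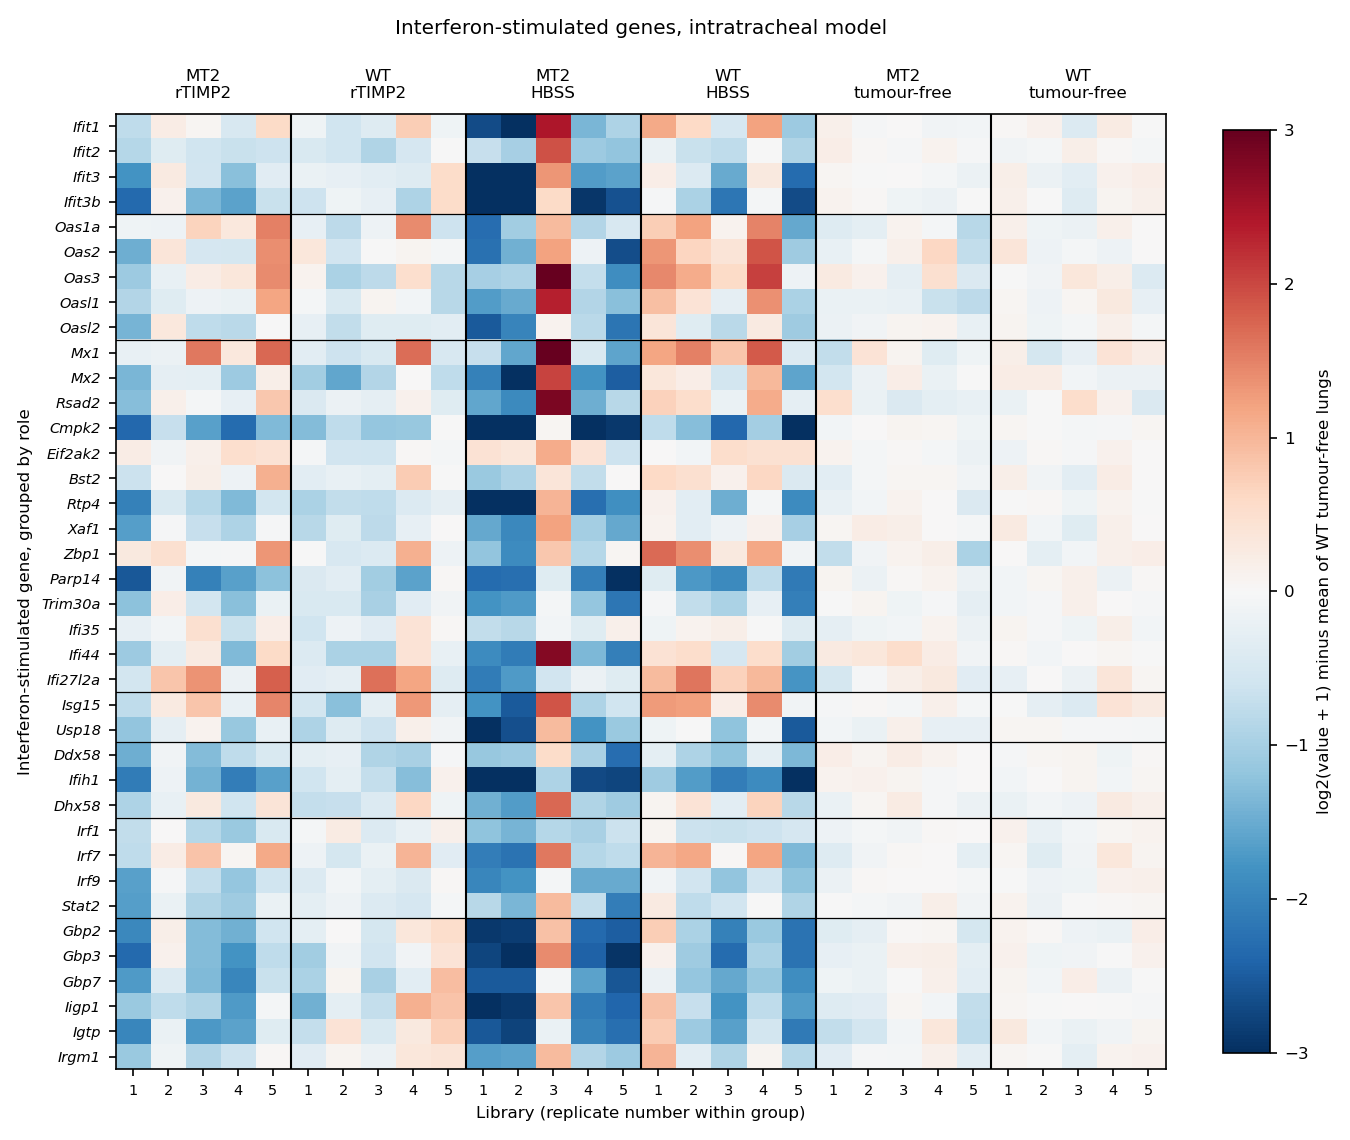
Log2 difference of each of the 38 members (rows, by role) from the mean of the tumour-free WT lungs, in each of the 30 intratracheal libraries (columns). Of the MT2 HBSS lungs, replicate 3 had 29 members above that mean and the other 4 had 20 to 34 members more than 1 log2 unit below it.

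MT2 lungs given tumour cells and HBSS held less of the interferon-stimulated transcripts than tumour-free MT2 lungs in 4 of 5 libraries. The fits used limma on log2(value + 1), with p adjusted over all genes by Benjamini-Hochberg and a call at adjusted p under 0.05, and fold changes are log2 ± SE. With all 5 libraries, 16 members fell and 0 rose, where 35.9% of 16999 genes tested fell and 31.5% rose. Of the 38 members, 37 had a negative log2 fold change, with a median of -1.09 against -0.05 over all genes tested. The share of members that fell (16 of 38) was close to the background share.

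The RNA sensor Ifih1, which encodes MDA5 and detects long double-stranded RNA, was 59.2, 44.1, 323, 93.2 and 89.3 normalized counts in MT2 HBSS lungs, against 662, 674, 647, 602 and 617 in tumour-free MT2 lungs. No MT2 HBSS library reached the lowest tumour-free value, and Ifih1 fell (-2.76 ± 0.42, adjusted p = 0.000133, limma). Cmpk2, a mitochondrial nucleotide kinase encoded beside Rsad2, was 28.6, 33.3, 505, 40.0 and 64.3 in MT2 HBSS lungs, against 453, 487, 511, 502 and 444 in tumour-free MT2 lungs. Replicate 3 alone was at the tumour-free level, and the gene fell (-2.83 ± 0.64, adjusted p = 0.00216, limma). Ifit3b, a copy of the IFIT3 adaptor gene, was 2.36, 8.58, 341, 29.6 and 36.7 in MT2 HBSS lungs, against 247, 234, 211, 204 and 227 in tumour-free MT2 lungs (-3.09 ± 0.95, adjusted p = 0.0129, limma). Its values in replicate 3 and in the other 4 libraries lay on opposite sides of the tumour-free range, and since Ifit3 and Ifit3b are near-identical copies, the split of reads between them is uncertain. Parp14, an ADP-ribosyltransferase, was 279.8, 292, 1082, 338 and 159 in MT2 HBSS lungs, against 1487, 1245, 1428, 1509 and 1234 in tumour-free MT2 lungs, without overlap. It fell (adjusted p = 0.00084, limma), with means of 430.3 ± 370.4 in MT2 HBSS lungs and 1381 ± 132 in tumour-free MT2 lungs (SD, n = 5 each).

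By role, the GTPases, which attack the vacuoles of intracellular pathogens, had the lowest median log2 fold change (-1.74), and 5 of 6 fell. Gbp2 was 144, 148, 1958, 213 and 193 in MT2 HBSS lungs, against 838, 884, 1092, 1122 and 739 in tumour-free MT2 lungs (-1.72 ± 0.61, adjusted p = 0.0262, limma). Igtp, which encodes Irgm3, was 98.0, 82.8, 498, 142 and 118 in MT2 HBSS lungs, against 342, 391, 536, 720.4 and 339 in tumour-free MT2 lungs (-1.60 ± 0.44, adjusted p = 0.0067, limma). For both genes replicate 3 was the highest MT2 HBSS library, above every tumour-free value for Gbp2 and inside their range for Igtp. Gbp3, Gbp7 and Iigp1 fell by 1.88, 1.76 and 1.78 on the log2 scale, with adjusted p of 0.0385, 0.00304 and 0.0353, and Irgm1 was not called (-0.74 ± 0.42, adjusted p = 0.139, limma). Of the 10 fits that left out 1 library, 9 lost the call of Gbp3, 8 that of Iigp1 and 6 that of Gbp2. Gbp7 and Igtp kept theirs in all 10. The transcription factors Irf1 (-0.96 ± 0.15, adjusted p = 0.000125) and Irf9 (-1.32 ± 0.30, adjusted p = 0.0021) fell by limma, and Stat2 and Irf7 did not pass the test. Of the OAS genes, whose products make the messenger that activates RNase L or are related to them, Oasl2 fell (-1.41 ± 0.42, adjusted p = 0.0114, limma) and the other 4 were not called.

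The classical induction markers were divided among MT2 HBSS libraries. Ifit1, whose product binds viral RNA caps, was 40.9, 24.7, 1455, 104 and 141 in MT2 HBSS lungs, against 299, 263, 270.2, 250.2 and 254 in tumour-free MT2 lungs. Isg15, a ubiquitin-like modifier, was 41.9, 24.7, 549, 77.1 and 97.7 in MT2 HBSS lungs, against 144, 151, 142, 164 and 141 in tumour-free MT2 lungs. Irf7, the factor that amplifies interferon production, was 79.7, 72, 1026, 187 and 201 in MT2 HBSS lungs, against 259, 317, 351, 346 and 276 in tumour-free MT2 lungs. In each of the 3 genes, replicate 3 exceeded every tumour-free library and the other 4 lay below every one. With all libraries none was called (Ifit1 adjusted p = 0.243, Isg15 0.292, Irf7 0.298, limma).

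**Figure D2:**
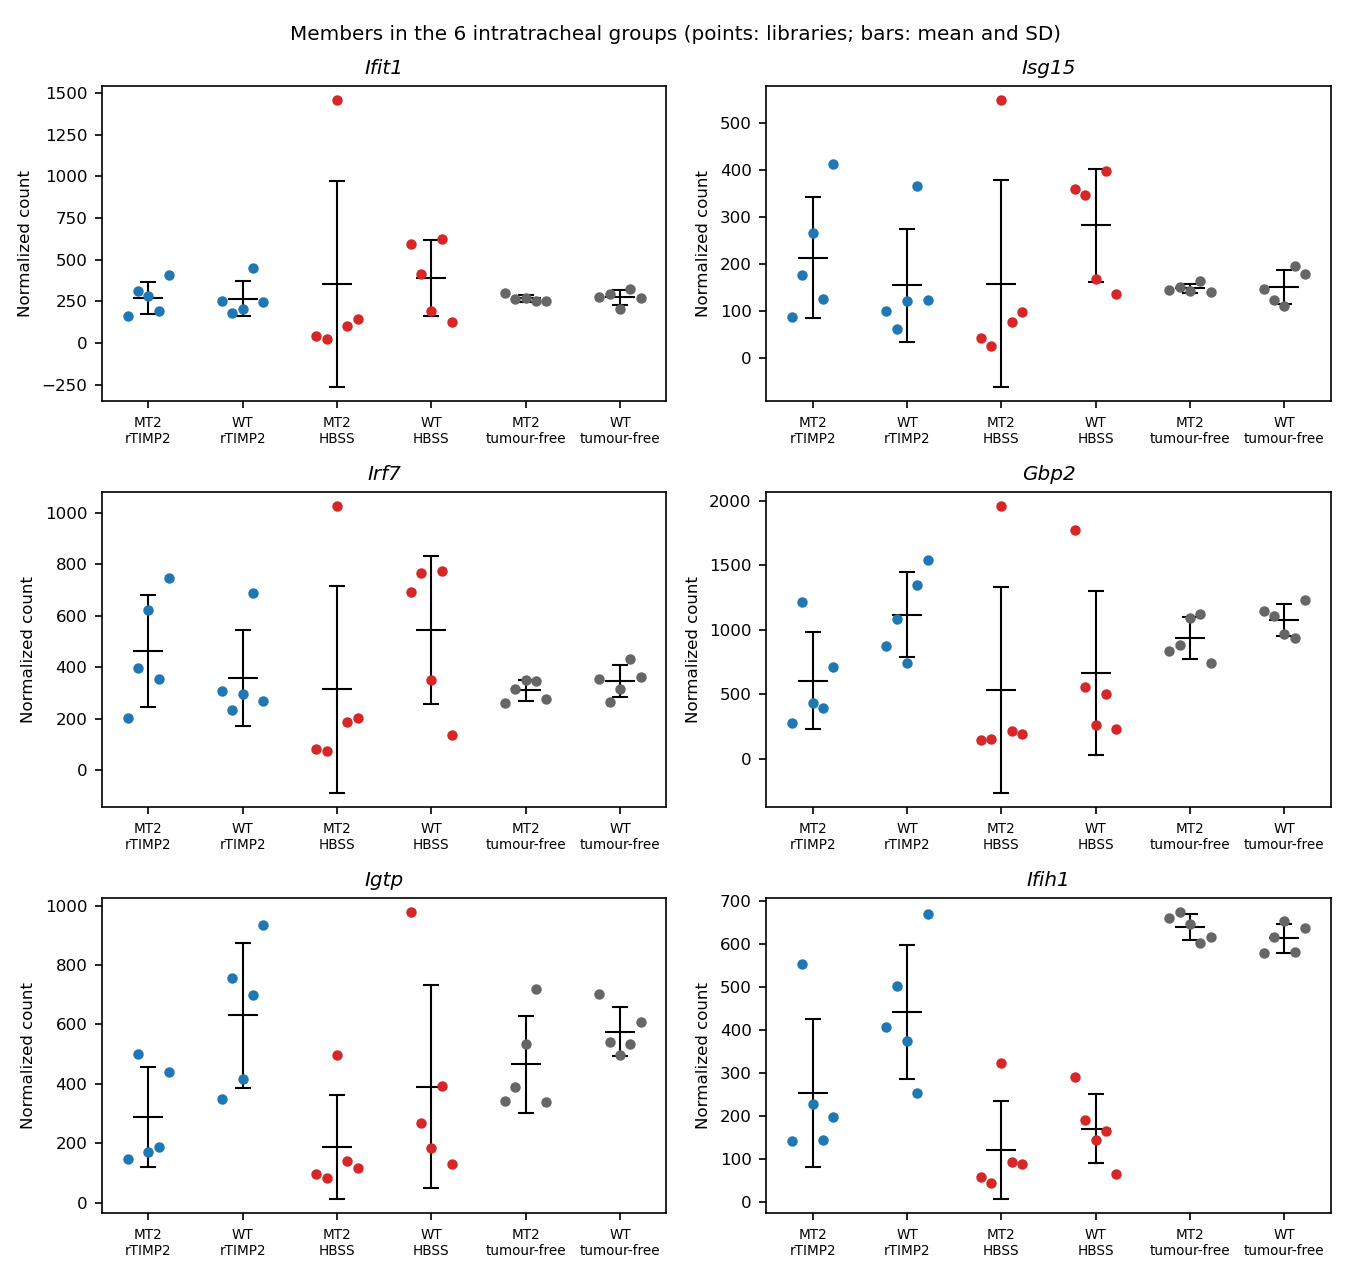
Normalized counts (linear axis) of Ifit1, Isg15, Irf7, Gbp2, Igtp and Ifih1 in each intratracheal library, by group. Points are libraries and bars the mean and SD, with MT2 HBSS replicate 3 lying far above its group, at 1455 for Ifit1.

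Without replicate 3 of the MT2 HBSS lungs, 34 of 38 members fell and 0 rose, where 36.8% of all genes fell. Leaving out a library picked for high member values favours falls of the members. The median log2 fold change of the members was then -1.58, against -0.07 over all genes. Ifit1 changed by -2.08 ± 0.44 (adjusted p = 0.00199), Isg15 by -1.47 ± 0.35 (adjusted p = 0.00405) and Irf7 by -1.33 ± 0.32 (adjusted p = 0.00393, limma), and Ifih1 by -3.21 ± 0.21 (adjusted p = 2.02e-06, limma). Replicate 3 was the highest library of its group for 35 of 38 members. It had 17 members more than 1 log2 unit above the tumour-free WT mean and 0 as far below. Its luciferase level (57) and summed markers of endothelial cells (3085), monocytes (1912) and T cells were inside the range of the other 4 MT2 HBSS lungs. The neutrophil sum of replicate 3 was the highest (3418), with 3019 in replicate 5. Its NK cell sum was the lowest (10.6), in a group where none exceeded 37.1. The chemokine gene Cxcl10, an interferon target outside the set, was 2189 in replicate 3 and 36.8, 11.8, 49.5 and 107 in replicates 1, 2, 4 and 5. The labels mark nothing different about replicate 3, and the part of neutrophils in its values was not tested.

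In WT mice, tumour cells with HBSS went with changes of the members in both directions. Of the 38 members, 12 fell and 4 rose, where 37.7% of 16967 genes tested fell and 32.8% rose, and 14 members had a positive log2 fold change. The median was -0.28 against -0.07 over all genes, and neither share of members was above the background share. Setting all libraries to the same total made the split 5 higher and 8 lower (36.2% of all genes higher and 34.8% lower), and the same upper quartile made it 5 higher and 9 lower (35.8% and 35.2%).

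Among the falls, Ifih1 was 291, 190.2, 144, 165 and 66.6 in WT HBSS lungs, against 579.8, 616, 653, 581 and 638 in tumour-free WT lungs (-1.98 ± 0.31, adjusted p = 0.000204, limma). Cmpk2 was 285, 198, 93.4, 239 and 52.4 in WT HBSS lungs, against 499, 476, 462, 472 and 506 in tumour-free WT lungs (-1.72 ± 0.40, adjusted p = 0.00277, limma). Parp14 was 1082, 424, 374, 822 and 319 in WT HBSS lungs, against 1318, 1459, 1555, 1243 and 1423 in tumour-free WT lungs (-1.37 ± 0.30, adjusted p = 0.00202, limma). For these 3 genes and for Ddx58, which encodes the sensor RIG-I (-0.81 ± 0.20, adjusted p = 0.00414, limma), every WT HBSS library lay below every tumour-free one. Gbp3 was 530.5, 233, 98.2, 253 and 105 in WT HBSS lungs, against 529, 442, 454, 484 and 532 in tumour-free WT lungs (-1.28 ± 0.40, adjusted p = 0.0136, limma). Here replicate 1 stayed at the tumour-free level. Gbp7 (-1.17), Irf9 (-0.73), Irf1 (-0.47) and Ifit2 (-0.51) also fell, and these 4 and the 5 genes before them kept their call without any single library. With the 6 intratracheal groups in 1 fit Gbp3 and Ifit2 lost it, and Ifit2 also lost it at the same library total. Ifit3b (-1.18 ± 0.48, adjusted p = 0.047), Gbp2 (-1.11 ± 0.46, adjusted p = 0.0479) and Trim30a (-0.80 ± 0.31, adjusted p = 0.0387, limma) lost it without several single libraries.

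The 4 rises in WT HBSS lungs were Oas3, Mx1, Zbp1 and Isg15. Oas3, which makes the RNase L activator, was 163, 130.1, 89.7, 250.4 and 53.5 in WT HBSS lungs, against 59.7, 55.3, 76.6, 68.2 and 44.8 in tumour-free WT lungs (1.00 ± 0.36, adjusted p = 0.0272, limma). Mx1, an antiviral dynamin-like GTPase, was 84.3, 107, 66.7, 135 and 27.2 in WT HBSS lungs, against 41.4, 25.2, 30.6, 48.7 and 42.8 in tumour-free WT lungs (0.99 ± 0.39, adjusted p = 0.0396, limma). Replicate 5 lay inside the tumour-free range for both genes and the other 4 libraries lay above it. Zbp1, a sensor of Z-form nucleic acid, was 379, 307, 143, 264 and 109 in WT HBSS lungs, against 117, 96, 111, 131 and 134 in tumour-free WT lungs (0.88 ± 0.31, adjusted p = 0.0251, limma). Isg15 was 359.6, 348, 169, 399 and 136 in WT HBSS lungs, against 147, 122, 111, 196 and 179 in tumour-free WT lungs (0.80 ± 0.31, adjusted p = 0.0391, limma). For Isg15 replicates 1, 2 and 4 were above the tumour-free range and replicates 3 and 5 inside it. All 4 rises lost their call when the 6 intratracheal groups shared 1 fit (0 members higher and 8 lower, with 29.5% of all genes higher and 34.4% lower), and each also lost it without at least 3 single libraries. Without WT HBSS replicate 5, 9 members rose and 10 fell (31.0% and 36.8% of all genes). That library was the lowest of its group for 33 members, so leaving it out favours rises. Without WT HBSS replicate 2, 1 rose and 9 fell (31.7% and 37.2%), and without WT HBSS replicate 4, 0 rose and 11 fell (31.5% and 37.5%). Without tumour-free replicate 2, 0 rose and 9 fell (31.0% and 35.2%), and without tumour-free replicate 1, 3 or 5, 2 rose and 9 fell (31.1% to 31.7% and 35.0% to 35.7%).

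Ifit1, Irf7, Gbp2 and Igtp varied widely among WT HBSS lungs. Ifit1 was 594, 411, 190.4, 626 and 127 in WT HBSS lungs, against 275, 295, 204, 321 and 269 in tumour-free WT lungs (0.27 ± 0.41, adjusted p = 0.563, limma). Irf7 was 693, 767, 349, 773 and 134 in WT HBSS lungs, against 353, 264, 314, 432 and 362 in tumour-free WT lungs (0.41 ± 0.44, adjusted p = 0.41, limma). In both genes replicates 1, 2 and 4 were above the tumour-free range and replicate 5 was below it, and for Ifit1 replicate 3 was below it too. Gbp2 was 1772, 552, 263, 498 and 230.0 in WT HBSS lungs, against 1149, 1103, 963, 935 and 1231 in tumour-free WT lungs. Igtp was 977, 270.0, 184, 392 and 131 in WT HBSS lungs, against 701, 540.2, 496, 533 and 609.7 in tumour-free WT lungs (-0.92 ± 0.44, adjusted p = 0.0823, limma). Replicate 1 was above the tumour-free range for both GTPases and the other 4 lay below it. By role, the median log2 fold change was 0.40 for the OAS genes, -0.03 for the other effectors, -0.43 for the transcription factors, -0.63 for the IFIT genes, -0.81 for the RNA sensors and -1.02 for the GTPases.

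**Figure D3:**
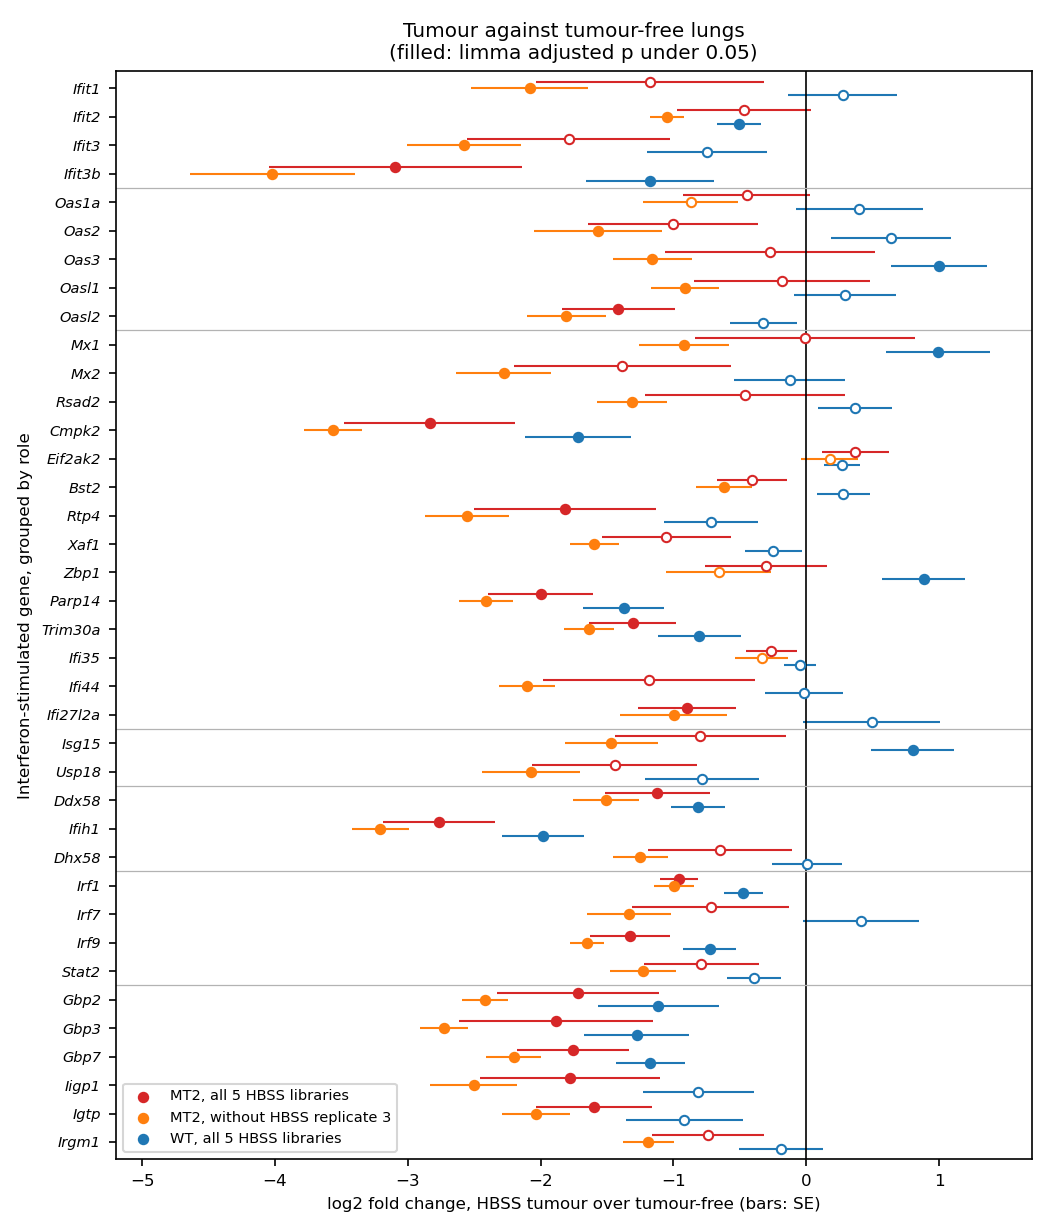
Log2 fold change with its standard error of each member (rows, by role), HBSS lungs given tumour cells over tumour-free lungs, for MT2 with all 5 HBSS libraries, MT2 without HBSS replicate 3, and WT. The MT2 values without replicate 3 lie furthest left, with a median of -1.58, against -1.09 with all MT2 libraries and -0.28 in WT.

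Cell-type markers moved in the same comparisons. All 6 endothelial markers, all 7 T cell markers and all 6 NK cell markers fell with tumour cells and HBSS in both genotypes, and none was at 0 in every library of a group. The endothelial sum was 2208 to 8973 in MT2 HBSS lungs and 45600 to 51084 in tumour-free MT2 lungs, and it was 3464 to 17566 in WT HBSS lungs and 45844 to 50506 in tumour-free WT lungs. The monocyte sum was 1230.2 to 5043 in MT2 HBSS lungs and 19781 to 26870 in tumour-free MT2 lungs, and it was 1655 to 8385 in WT HBSS lungs and 18712 to 21336 in tumour-free WT lungs. The sum for NK cells, a source of interferon gamma, was 10.6 to 37.1 in MT2 HBSS lungs and 345 to 584 in tumour-free MT2 lungs, and it was 22.2 to 241 in WT HBSS lungs and 431 to 732 in tumour-free WT lungs. Of the 7 monocyte markers, 6 fell in MT2 and 5 in WT. Ace weighed most in the monocyte sum of HBSS lungs, with a mean of 1383 in MT2 and 2656 in WT. Ccr2 averaged 231 and 514 there, so the sum mainly follows 1 gene. Of the 6 interstitial and tumour macrophage markers, 5 rose in each genotype. Siglech, a marker of the interferon-producing plasmacytoid dendritic cell, was 0, 0, 0, 8.56 and 0 in MT2 HBSS lungs and 40.0 to 59.9 in tumour-free MT2 lungs, and 5.04 to 19.7 in WT HBSS lungs and 33.9 to 61.6 in tumour-free WT lungs. In that cell type's list of 7 markers, 6 passed the filter, 4 fell in each genotype and 1 rose in MT2, with sums of 3004 to 7045 in MT2 HBSS lungs and 3434 to 4053 in tumour-free MT2 lungs, and of 3535 to 7377 in WT HBSS lungs and 3337 to 4159 in tumour-free WT lungs. In HBSS lungs these last sums were mostly Tcf4, with means of 5439 in MT2 and 4924 in WT, where Siglech averaged 1.71 and 10.3. They therefore do not follow the other markers of that list. The MT2 counts of markers called in the lists above were the same without MT2 HBSS replicate 3. The part of these cell types in the members' values was not tested.

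The difference between MT2 and WT was then read for the members. In tumour-free lungs 0 of 38 differed by limma (0.0238% of 16774 genes did), 4 members and 1633 genes had an unadjusted p under 0.05, and the median of the members was -0.07. In HBSS lungs given tumour cells 0 members and 0 of 16299 genes (0%) passed, although 36 of 38 members had a negative log2 fold change and the median was -0.90, against -0.03 over all genes. Isg15 was -1.59 ± 0.69 (adjusted p = 0.642), Ifit1 -1.47 ± 0.92 (adjusted p = 0.758), Irf7 -1.28 ± 0.70 (adjusted p = 0.729), Igtp -1.04 ± 0.57 (adjusted p = 0.735) and Gbp2 -0.82 ± 0.73 (adjusted p = 0.844, limma). The unadjusted p was under 0.05 for 7 members and for 1208 genes. Without MT2 HBSS replicate 3, all 38 members were lower in MT2 than in WT, with a median of -1.54. Of them, 34 had an unadjusted p under 0.05 by limma. No count over all genes was made for this fit, so that number cannot be called particular to the members. Leaving out a library picked for high member values also favours lower members in MT2. Still 0 members passed after adjustment, the smallest adjusted p being 0.461. In that fit Isg15 was -2.26 ± 0.46, Oas3 -2.12 ± 0.45, Ifi44 -1.83 ± 0.38 and Rsad2 -1.81 ± 0.34, each at that adjusted p.

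Whether the tumour effect itself differed between MT2 and WT was tested as an interaction. It was called for 0 of 38 members and for 4 of 17927 genes (0.0223%), and 1 member and 1776 genes had an unadjusted p under 0.05. The interaction was negative for 36 members, with a median of -0.79 against -0.06 over all genes, and it was -1.60 ± 0.77 for Isg15 (adjusted p = 0.504, limma). Without MT2 HBSS replicate 3 it was negative for all 38, with a median of -1.33 and a smallest adjusted p of 0.0559, that of Ifi44 (-2.09 ± 0.38). In that fit 33 members had an unadjusted p under 0.05. Without a count over all genes, which was not made, that number cannot be called particular to the members. The library was picked for its high member values, so the larger difference without it follows from the selection and is not further evidence. No member passed the threshold. These comparisons share the HBSS and tumour-free libraries with those above and are not separate evidence.

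rTIMP2 in WT lungs given tumour cells changed 2 members relative to HBSS, where 27.3% of 16908 genes changed. Ifih1 was 407, 503, 374, 254 and 670.2 in WT rTIMP2 lungs, against 291, 190.2, 144, 165 and 66.6 in WT HBSS lungs, and it rose (1.44 ± 0.38, adjusted p = 0.0398, limma). Oas3 was 64.9, 30.7, 34.4, 84.9 and 33.4 in WT rTIMP2 lungs, against 163, 130.1, 89.7, 250.4 and 53.5 in WT HBSS lungs, and it fell (-1.39 ± 0.45, adjusted p = 0.0454, limma). Both genes were nearer the tumour-free level in rTIMP2 lungs, and the groups overlapped in 1 or more libraries for each. All 6 GTPases had a positive and all 5 OAS genes a negative log2 fold change, with role medians of 0.94 and -0.57, while the median of all 38 was -0.04. Without WT HBSS replicate 1, the count was 7 higher and 1 lower (42.5% of all genes called), and the rises included Gbp2 (1.58 ± 0.32, adjusted p = 0.0115), Igtp (1.39 ± 0.38, adjusted p = 0.0196) and Gbp3 (1.34 ± 0.38, adjusted p = 0.0217, limma). Without WT rTIMP2 replicate 4, the count was 1 higher and 5 lower (55.2% of all genes called), and the falls included Isg15 (-1.39 ± 0.37, adjusted p = 0.0108) and Mx1 (-1.46 ± 0.43, adjusted p = 0.0159, limma). Without any one of the other 8 libraries, 0 members and 0% of all genes were called. WT HBSS replicate 1 was the highest of its group for Gbp2, Igtp and Gbp3, and WT rTIMP2 replicate 4 for Isg15 and Mx1. Leaving out a library that is high for these genes favours the rises and falls named for them.

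The remaining key members were spread in WT rTIMP2 lungs around one library. Isg15 was 100.4, 61.4, 120.4, 366 and 123, Ifit1 was 248, 178, 205, 450.4 and 247, and Irf7 was 306, 235, 296, 689 and 267 in WT rTIMP2 lungs. Replicate 4 was the highest for all 3 genes. It also had the highest luciferase level of its group (67.7) and the lowest endothelial sum (6566, against 24898 to 44549 in the other 4). Gbp2 was 872, 1082, 742, 1346 and 1541 and Igtp was 348, 757, 417, 698 and 935 in WT rTIMP2 lungs, where replicate 5 was the highest. Against tumour-free WT lungs, 0 of 38 members were called in WT rTIMP2 lungs (0.208% of 16815 genes were), and 11 members and 2868 genes had an unadjusted p under 0.05. A negative log2 fold change was found for 33 members, and the median of all members was -0.25. Without WT rTIMP2 replicate 4, 2 members fell (4.14% of all genes called), and without replicate 5, 3 did (2.08%). All 6 endothelial markers and 4 of 6 NK cell markers rose with rTIMP2 over HBSS in WT lungs, and the luciferase transcript was at 0 in 3 of these 5 lungs. The marker calls were lost in the fits above that left out a library and called no gene. The part of these cells and of tumour cells in the values was not tested.

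rTIMP2 in MT2 lungs given tumour cells changed 0 of 38 members relative to HBSS by limma, as it did 0 of 16248 genes (0%). An unadjusted p under 0.05 was reached by 3 members and by 1559 genes, and 36 members had a positive log2 fold change with a median of 0.78, against 0.03 over all genes. Isg15 was 87.3, 177, 266, 126 and 412 in MT2 rTIMP2 lungs, against 41.9, 24.7, 549, 77.1 and 97.7 in MT2 HBSS lungs (1.11 ± 0.73, adjusted p = 0.595, limma). Ifit1 was 159, 313, 282, 193 and 404 in MT2 rTIMP2 lungs, against 40.9, 24.7, 1455, 104 and 141 in MT2 HBSS lungs (1.12 ± 0.88, adjusted p = 0.654, limma). Irf7 was 201, 397, 622, 354 and 747 in MT2 rTIMP2 lungs, against 79.7, 72, 1026, 187 and 201 in MT2 HBSS lungs. For Isg15 and Ifit1, replicate 3 was the only MT2 HBSS library above 150, and for Irf7 it was above every rTIMP2 library. Gbp2 was 279.6, 1213, 433, 393 and 710.3 and Igtp was 146, 499, 172, 186 and 441 in MT2 rTIMP2 lungs. Without MT2 HBSS replicate 3, all 38 members had a positive log2 fold change (median 1.35), with a smallest adjusted p of 0.39. Of them, 30 had an unadjusted p under 0.05. With no count over all genes made for this fit, that number cannot be called particular to the members. Leaving out an HBSS library picked for high member values favours such rises.

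Against tumour-free MT2 lungs, which also serve the HBSS comparison above, 13 members fell and 0 rose in MT2 rTIMP2 lungs, where 32.7% of 16754 genes fell and 26.6% rose. Cmpk2 was 93.2, 299, 156, 97.1 and 192 in MT2 rTIMP2 lungs, against 453, 487, 511, 502 and 444 in tumour-free MT2 lungs (-1.65 ± 0.29, adjusted p = 0.00584, limma). Ifih1 was 142, 553, 228, 144 and 199 in MT2 rTIMP2 lungs, against 662, 674, 647, 602 and 617 in tumour-free MT2 lungs (-1.54 ± 0.32, adjusted p = 0.00585, limma). Both genes lay below the tumour-free range in all 5 rTIMP2 lungs, with replicate 2 nearest to it. Parp14 was 240.3, 1295, 343, 452 and 596 in MT2 rTIMP2 lungs, against 1487, 1245, 1428, 1509 and 1234 in tumour-free MT2 lungs (-1.48 ± 0.37, adjusted p = 0.00814, limma). Ifit3b was 44.5, 252, 88.7, 74.7 and 144 in MT2 rTIMP2 lungs, against 247, 234, 211, 204 and 227 in tumour-free MT2 lungs (-1.13 ± 0.39, adjusted p = 0.0276, limma). The Ifit3b call was lost in 6 of the 10 fits without a single library, while Cmpk2, Ifih1 and Parp14 kept theirs. Replicate 2 was inside or above the tumour-free range for Parp14 and Ifit3b. It was also the rTIMP2 library with a luciferase level of 0.983, and its endothelial sum was 39922, against 2811 to 5922 in the other 4. Without replicate 2, 20 members fell and 3 rose (74.4% of all genes called), the rises being Oas1a (0.89 ± 0.30, adjusted p = 0.0176), Mx1 (0.99 ± 0.40, adjusted p = 0.0401) and Eif2ak2 (0.37 ± 0.11, adjusted p = 0.0102, limma). Without replicate 3, 8 members fell (49.3% of all genes called), as did 8 without replicate 4 (53.8%).

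In rTIMP2 lungs, 0 of 38 members and 0 of 16858 genes (0%) differed between MT2 and WT by limma, with 7 members and 2998 genes at an unadjusted p under 0.05. Without MT2 rTIMP2 replicate 2, 10 members were lower and 1 was higher in MT2 (35.2% of all genes called), with Igtp at -1.46 ± 0.38 (adjusted p = 0.0242), Gbp2 at -1.33 ± 0.30 (adjusted p = 0.02) and Ifih1 at -1.26 ± 0.29 (adjusted p = 0.0202, limma). Replicate 2 was the MT2 rTIMP2 lung with almost no luciferase transcript (0.983), and the median of the WT rTIMP2 lungs was 0. In the fit without it, genotype and the amount of tumour RNA cannot be told apart. The interaction of genotype with rTIMP2 was called for 0 members and 0 of 17841 genes (0%), with 2 members and 1053 genes at an unadjusted p under 0.05, so no member's response to rTIMP2 was shown to differ between MT2 and WT. Leaving out MT2 HBSS replicate 3, the interaction was positive for all 38 members (median 1.22) and 0 were called, with a smallest adjusted p of 0.751. Of them, 17 had an unadjusted p under 0.05. With no count over all genes made for this fit, that number cannot be called particular to the members. The choice of that library by its high member values favours this direction. Without WT rTIMP2 replicate 4, 0 members were called for the interaction or for MT2 over WT.

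**Figure D4:**
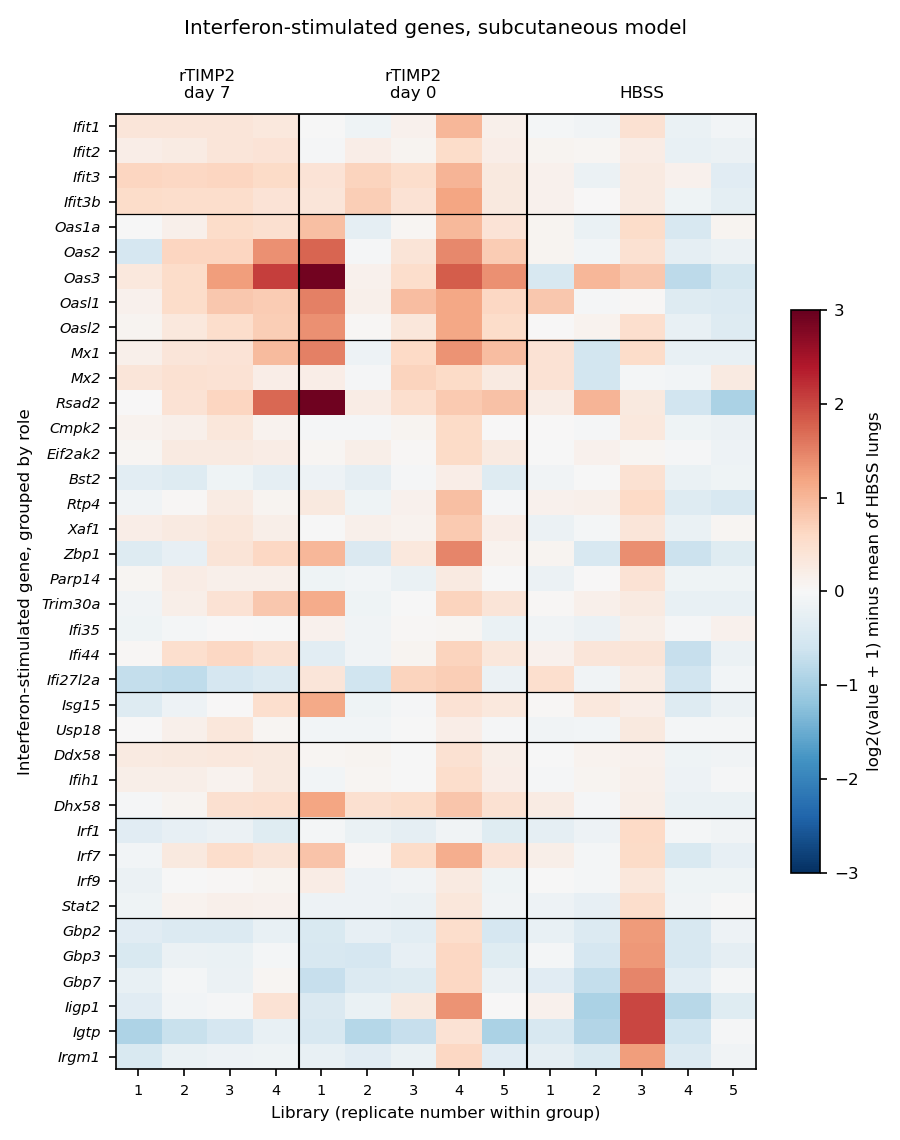
Log2 difference of each of the 38 members (rows, by role) from the mean of the HBSS lungs, in each of the 14 subcutaneous libraries (columns). HBSS replicate 3 was the highest HBSS library for 30 members and rTIMP2 from day 0 replicate 4 the highest of its group for 26.

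In the subcutaneous model the members moved little, and those that did were higher with rTIMP2. The IFIT pair Ifit3 and Ifit3b rose with both schedules. They are near-identical copies with an uncertain split of reads, so their rises may be a single signal although they are counted as separate members. Ifit3, an adaptor that steadies Ifit1 on viral RNA in human cells, was 1427, 1389, 1417 and 1351 in lungs given rTIMP2 from day 7 and 1216, 1442, 1321, 1851 and 1114 in lungs given it from day 0, against 995, 799.8, 1098, 990.5 and 716 in HBSS lungs. Ifit3b was 401, 397, 395 and 361 with rTIMP2 from day 7 and 354, 455, 371, 619 and 337 with rTIMP2 from day 0, against 299.6, 275, 328, 250.5 and 224 in HBSS lungs. Every rTIMP2 library was above every HBSS library for both genes. The changes were 0.62 ± 0.11 for Ifit3 (adjusted p = 0.00569) and 0.51 ± 0.10 for Ifit3b (adjusted p = 0.00936) from day 7, and 0.59 ± 0.15 (adjusted p = 0.0308) and 0.61 ± 0.16 (adjusted p = 0.0347, limma) from day 0.

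With rTIMP2 from day 7, 4 members rose and 0 fell, where 4.46% of 17389 genes rose and 5.92% fell. Besides the pair, these were Ifit2 and Ddx58. Ddx58 was 999.7, 1020.4, 1036 and 1017 with rTIMP2 from day 7, against 833, 905, 908, 757 and 781 in HBSS lungs (0.29 ± 0.07, adjusted p = 0.0158, limma). Ifit2 was 538, 560.4, 606 and 627 with rTIMP2 from day 7, against 495, 493, 552, 405 and 418 in HBSS lungs (0.31 ± 0.09, adjusted p = 0.0479, limma). The ranges did not overlap for Ddx58 and did for Ifit2, whose call was lost without 7 of the 9 single libraries. Without day 7 replicate 2, 2 members rose (4.74% of all genes called). Without HBSS replicate 3, 7 members rose (3.16% of all genes rose), adding Ifit1 (0.46 ± 0.08, adjusted p = 0.00747), Xaf1 (0.34 ± 0.09, adjusted p = 0.0343) and Parp14 (0.26 ± 0.07, adjusted p = 0.0384, limma). That HBSS library stood apart high for 14 members, so leaving it out favours such rises by selection. With all libraries Ifit1 was 380.3, 382, 381 and 367 from day 7, against 282, 276, 407, 257 and 279.5 in HBSS lungs (0.35 ± 0.11, adjusted p = 0.0662, limma). HBSS replicate 3 was the only HBSS library above the lowest of these rTIMP2 values.

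With rTIMP2 from day 0, 3 members rose and 0 fell, where 3.88% of 17282 genes rose and 4.21% fell. The third was Dhx58, which encodes LGP2, a regulator of the other RNA sensors. It was 325, 199, 211, 258 and 198 with rTIMP2 from day 0, against 171, 139.7, 162, 125 and 124 in HBSS lungs, without overlap (0.70 ± 0.15, adjusted p = 0.00998, limma). From day 7 it was 139, 151, 199 and 205, overlapping the HBSS values (0.25 ± 0.15, adjusted p = 0.281, limma). The schedules were compared directly, and 0 members differed (0.235% of 17481 genes did), with Dhx58 at -0.45 ± 0.16 for day 7 over day 0 (adjusted p = 0.269, limma). In that comparison 2 members and 2249 genes had an unadjusted p under 0.05. The 2 schedules share the HBSS lungs, so their rises are not independent of each other. The Dhx58 call held without any single library, and those of Ifit3 and Ifit3b from day 0 were each lost without 4 of the 10, so that 1 member rose without HBSS replicate 2 or without HBSS replicate 5 (4.99% and 5.48% of all genes called). Without HBSS replicate 3 or without day 0 replicate 4 the count was 3.

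**Figure D5:**
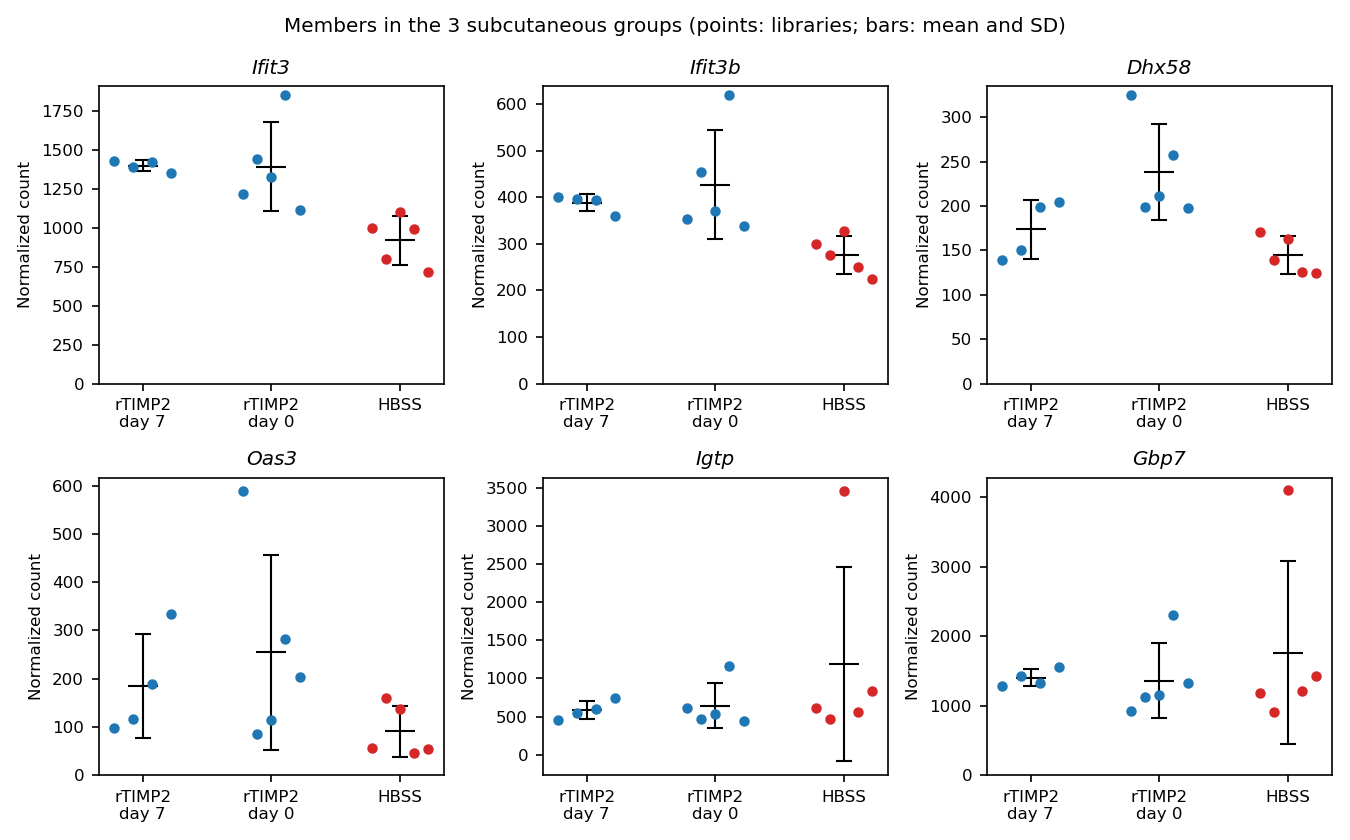
Normalized counts (linear axis) of Ifit3, Ifit3b, Dhx58, Oas3, Igtp and Gbp7 in each subcutaneous library, by group. Points are libraries and bars the mean and SD, with Ifit3 and Ifit3b above every HBSS library in all 9 rTIMP2 lungs and Igtp at 3458 in HBSS replicate 3.

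The OAS genes and the GTPases leaned in opposite directions in the subcutaneous lungs without passing the test, and the GTPase lean depended on HBSS replicate 3. All 5 OAS genes had a positive log2 fold change with each schedule, with a median of 0.54 from day 7 and 0.86 from day 0. Oas3 was 97.7, 116, 188 and 334 from day 7 and 589, 86, 113, 281 and 204 from day 0, against 56.1, 159, 138, 45.4 and 54.1 in HBSS lungs, with adjusted p of 0.243 and 0.196 by limma. Rsad2, which encodes the antiviral enzyme viperin, was 242, 325, 371 and 784 from day 7 and 1824, 278, 341, 415 and 441 from day 0, against 278, 481, 292, 161 and 123 in HBSS lungs. Replicate 4 from day 7 and replicate 1 from day 0 were the highest of their groups for both genes. Those libraries also had the highest neutrophil marker sums of their groups, at 10683 for day 7 replicate 4 and 42892 for day 0 replicate 1, against 1422 to 5723 in HBSS lungs. The part of neutrophils in these values was not tested.

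The GTPases had a median log2 fold change of -0.23 from day 7 and -0.20 from day 0, with 6 and 5 of 6 negative, and none was called. These negative medians depended on HBSS replicate 3, the highest HBSS lung for every GTPase. Against the other HBSS lungs, Gbp3, Gbp7, Iigp1 and Irgm1 had higher log2 means with both schedules, and Igtp did not. Gbp2 was then lower from day 7 and higher from day 0. Leaving out a library seen to be high for these genes favours such rises. Igtp was 455, 545, 602 and 738 from day 7 and 615, 471, 532, 1165 and 442 from day 0, against 611, 469, 3458, 566 and 833 in HBSS lungs. Gbp2 was 938, 903, 906 and 1017 from day 7 and 870.4, 999, 954, 1709 and 847 from day 0, against 1016, 895, 2899, 853 and 1082 in HBSS lungs. HBSS replicate 3 and day 0 replicate 4 stood above the rest of their groups for both genes. The NK cell marker sum was highest in the same libraries, at 1391 in day 0 replicate 4 (513.6 to 937 in the other day 0 lungs) and 1938 in HBSS replicate 3 (581 to 1070.4 in the other HBSS lungs). HBSS replicate 3 also had the highest Ifng level of the 14 libraries (10.3), and the part of NK cells or interferon gamma in its values was not tested. Irf7 was 351, 452, 533 and 480.0 from day 7 and 668, 378, 537, 784 and 488 from day 0, against 417, 354, 550.0, 269.6 and 312 in HBSS lungs. Isg15 was 115, 135, 151 and 213 from day 7 and 332, 137, 146, 203 and 186 from day 0, against 153, 189, 174, 114 and 134 in HBSS lungs. Ifit1 from day 0 was 294, 272, 325, 592 and 332. The groups overlapped for these 3 genes and none was called with either schedule.

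Other genes of the pathway, from lists chosen by role, were read beside the members. Of the interferons, Ifng alone was analysed here, and at 10.8 or less in every library it was not tested. It was listed at 0 in all 5 MT2 HBSS lungs. Of 13 receptor and signalling genes, 2 rose and 10 fell in MT2 HBSS lungs over tumour-free MT2 lungs, and 2 rose and 9 fell in the WT comparison. The feedback inhibitors Socs1 and Socs3 were the pair that rose, Socs1 by 1.34 ± 0.25 in MT2 (adjusted p = 0.000559) and 1.36 ± 0.17 in WT (adjusted p = 4.13e-05), and Socs3 by 1.08 ± 0.22 in MT2 (adjusted p = 0.00111) and 1.32 ± 0.17 in WT (adjusted p = 4.93e-05, limma). Ifnlr1, the receptor of type III interferons, fell in MT2 (-3.33 ± 0.65, adjusted p = 0.000759) and in WT (-2.75 ± 0.45, adjusted p = 0.000301, limma). Upstream, 12 nucleic acid sensing genes gave 2 rises and 4 falls in MT2 and 2 rises and 3 falls in WT. Tlr3, a sensor of double-stranded RNA, fell in both (-2.18 ± 0.24, adjusted p = 1.24e-05 in MT2 and -1.78 ± 0.18, adjusted p = 1.44e-05 in WT, limma). Sting1, the adaptor of cytosolic DNA sensing, rose in both (0.85 ± 0.14, adjusted p = 0.000213 in MT2 and 1.25 ± 0.16, adjusted p = 5.26e-05 in WT, limma). Without MT2 HBSS replicate 3, the MT2 counts were 2 rises and 10 falls for the receptor and signalling genes and 2 rises and 5 falls for the sensing genes, and the 5 genes named here kept their call.

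Of 34 further interferon-stimulated genes, 2 rose and 22 fell in MT2 HBSS lungs over tumour-free lungs, and 6 rose and 22 fell in WT. The GTPase gene Gbp4 fell in MT2 (-3.52 ± 0.37, adjusted p = 8.75e-06) and in WT (-2.39 ± 0.50, adjusted p = 0.00143, limma), while Ifi204, a DNA sensor gene, rose in MT2 (2.22 ± 0.47, adjusted p = 0.00139) and in WT (2.18 ± 0.23, adjusted p = 1.42e-05, limma). The chemokine gene Cxcl10 rose in WT (2.72 ± 0.39, adjusted p = 0.00012, limma) with 400.0, 233, 103, 357 and 149 in WT HBSS lungs, against 18.2 to 50.7 in tumour-free WT lungs. Ciita, the switch for MHC class II genes, fell in MT2 (-4.58 ± 0.29, adjusted p = 2.96e-07) and in WT (-2.12 ± 0.52, adjusted p = 0.00368, limma). With rTIMP2 over HBSS in WT lungs, Socs1 fell (-1.37 ± 0.38, adjusted p = 0.0398), and Ifnlr1 (2.03 ± 0.61, adjusted p = 0.0408) and Ciita (1.96 ± 0.58, adjusted p = 0.0404, limma) rose. Like the members' calls in that comparison, these were lost in the fits that left out a library and called no gene. In the subcutaneous model the receptor subunit gene Ifnar1 rose with both schedules, by 0.26 ± 0.06 from day 7 (adjusted p = 0.0129) and 0.35 ± 0.06 from day 0 (adjusted p = 0.00422, limma). Ifit1bl1, a relative of Ifit1, rose by 0.83 ± 0.15 from day 7 (adjusted p = 0.00477) and 0.60 ± 0.15 from day 0 (adjusted p = 0.0259, limma), among 2 rises from day 7 and 3 from day 0 in the 34 further genes. Without MT2 HBSS replicate 3, 1 of the 34 further genes rose and 26 fell in MT2 HBSS lungs over tumour-free lungs, Gbp4, Ifi204 and Ciita kept their call, and Apol9a, the other rise, lost it (0.86 ± 0.36, adjusted p = 0.0565, limma).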

How the data were processed

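PolyA RNA from 44 mouse lung libraries was measured in 2 tables that the authors deposited as normalized counts per gene (a signal on a scale set by the authors), 1 for each tumour model, and they were analysed separately. Partek, Bowtie2, STAR, DESeq2 and the genome build mm10 are named in the submitters' processing notes; their roles and versions, the annotation and any use of strand are not stated there. Low values lay in steps, but only 78.4% to 84.2% of them were whole multiples of 1 read (tolerance 0.02, up to 20 steps), so no count model was used. Such values carry each library's scaling, and the depth behind them is only an estimate.

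Groups were taken from the sample titles. Values were transformed to log2(value + 1), genes with 10 or more in at least as many libraries as the smallest group were kept, and limma 3.58.1 in R 4.3.3 (trend and robust options) was fitted to the compared groups only, for 14 comparisons. P-values were adjusted over all genes by Benjamini-Hochberg, with calls under 0.05, and the fits were tested on simulated data. Fold changes of low genes are understated by the pseudocount. The luciferase and Hmga2 levels were compared by two-sided exact permutation tests. Promoters were RefSeq entries (the Gbp2 match overlaps an annotated transcript and is not shown); Oas2, Mx1, Mx2, Rtp4, Zbp1, Parp14, Ifi27l2a, Usp18, Dhx58 and Iigp1 had none in the table used. Replicate numbers did not pair the libraries. Alternatives were a pseudocount of 4, no filter, no trend or robust option, equal library totals or upper quartiles, 1 fit per table, a replicate block, and each library left out.

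The members, the lists of other pathway genes and markers, and the tests were chosen with earlier results of these data known. In each comparison the 4 largest called rises and falls are given with every library's value, as are Isg15, Irf7, Ifit1, Gbp2 and Igtp; of each other list, up to 4 called genes in a direction. Eif2ak2, Mx1, Oas1a, Ifi44, Rsad2 and Apol9a were named after their values were seen, as were the single libraries described.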

Additional observations from a re-analysis of the deposited data

Results flagged for a closer look

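A library far from the others of its group was looked for in groups of 4 or 5 by the gap to its neighbour over the group's range, which flags about 1 in 20 groups by chance. Replicate 3 of the MT2 HBSS lungs was the high one for Ifit1 (1455 normalized counts), Isg15 (549), Irf7 (1026), Gbp2 (1958), Igtp (498), Ifit3b (341), Cmpk2 (505), Ifih1 (323) and Parp14 (1082). Replicate 3 of the subcutaneous HBSS lungs was the high one for Igtp (3458), Gbp2 (2899) and Ifit1 (407), and replicate 4 of the day 0 group for Gbp2 (1709), Igtp (1165) and Ifit1 (592). Replicate 4 of the WT rTIMP2 lungs stood above its group for Irf7 (689), Isg15 (366) and Ifit1 (450.4). Single flags fell on Gbp2 in WT HBSS replicate 1 (1772) and on Ifih1 in MT2 rTIMP2 replicate 2 (553). In the day 7 group, replicate 4 was low for Ifit1 (367) and Ifit3b (361).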

How the results depend on the processing

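Among the counts of members called, those in 5 comparisons moved by more than 1.5 times under some setting. In lungs given rTIMP2 from day 0 it was 1 without the trend and robust options, against 3. Tumour cells with HBSS in WT gave 8 with all groups in 1 fit, against 16, and rTIMP2 over tumour-free in MT2 gave 8, against 13. rTIMP2 over HBSS in WT gave 1 with no filter on low values, against 2. Replicate numbers did not pair the libraries (in no comparison did every pair of same-numbered libraries correlate above 0.1). With a replicate block the count was 2 of the 4 from day 7 and 0 of the 2 for rTIMP2 over HBSS in WT, where the pair correlations ran from -0.46 to -0.26 and 0% of all genes were called.

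Leaving out each library in turn gave 1 to 4 members from day 0, 2 to 7 from day 7, 9 to 20 for tumour cells with HBSS in WT and 11 to 34 in MT2, 0 to 8 for rTIMP2 over HBSS in WT, 0 to 3 for rTIMP2 over tumour-free in WT and 8 to 23 in MT2, 0 to 11 for MT2 over WT with rTIMP2, and 0 in the remaining 6 comparisons. The cause of each move was not tested. No scaling reversed the direction of a named member.

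For the luciferase transcript in WT, rTIMP2 over HBSS, the exact permutation p was 0.05556, 0.04762 at the same upper quartile, and 0.007937 to 0.1032 with single libraries left out. The exact permutation p with single libraries left out was 0.04762 to 0.5635 for luciferase in MT2 with rTIMP2 over HBSS, 0.03175 to 0.3571 for luciferase in MT2 over WT with rTIMP2, 0.01587 to 0.0873 for Hmga2 in the same comparison, 0.01587 to 0.2381 for Hmga2 in WT with rTIMP2 over tumour-free, 0.007937 to 0.0873 for Hmga2 in MT2 over WT tumour-free lungs, and 0.254 to 0.9603 for Hmga2 in MT2 over WT HBSS lungs, where the direction reversed without WT HBSS replicate 1 (p = 0.9603). Groups held 4 or 5 libraries, which limits the precision of every comparison.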
